A study of Mus musculus with 6 samples.

Results

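The genes described here are 10 that process type I collagen, most of them known from osteogenesis imperfecta (brittle bone disease). They are Crtap, P3h1, Ppib, Serpinh1, Fkbp10, Plod1, Plod2, P4ha1, Bmp1 and Tmem38b. They were taken by gene identifier from a table of 23733 genes measured by total RNA-Seq, and all 10 were present and abundant enough to be tested among 18126 genes. The comparison was between femurs of 3 mutant mice and 3 control mice at 5 weeks of age, with 1 library per mouse. Mutant mice were heterozygous for the mIfitm5 allele, a Flag-tagged cDNA with the osteogenesis imperfecta type V mutation knocked into the Rosa26 locus, and carried Acan-Cre ERT2. In that line the aggrecan promoter, which is active in chondrocytes, drives a Cre recombinase that needs tamoxifen. The dose was 10 mg/kg, given at postnatal day 10 in one passage of the methods and from day 10 to day 15 in another. Controls were littermates with the Cre alone, the knocked-in allele alone or neither, on the same C57BL/6 background. The genotype of each control, the sex of the animals and whether controls received tamoxifen are not stated.

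Type I collagen is made in the endoplasmic reticulum from chains of Col1a1 and Col1a2. While the chains are being made, prolines and lysines are hydroxylated. The chains then fold into a triple helix with the help of chaperones, and outside the cell the propeptides are cut off so that fibrils can form. Loss of many of these enzymes and chaperones leaves collagen overmodified, badly folded or unprocessed, and causes recessive forms of brittle bone disease. Osteoblasts are the main source of type I collagen in bone.

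Totals per library were 11473467 to 14593082 counts in mutant femurs and 12467626 to 17058572 counts in control femurs. All 12 osteoblast and osteocyte markers of a fixed list were measured, and markers of cartilage, marrow and muscle were measured as well, so each library is a mixture of tissues. In such bulk RNA, fewer cells of a type and less RNA per cell cannot be told apart. Ifitm5 itself had 23.4, 36.7 and 36.0 CPM in mutant femurs 1, 2 and 3, against 31.8, 31.3 and 47.6 CPM in control femurs 1, 2 and 3, where CPM is counts scaled to the same library total, with TMM factors for library composition. Transcripts of the knocked-in cDNA and of the endogenous gene cannot be told apart in this count, so it does not check the labels. Exons of 6 of the 10 genes lie opposite exons of another gene in GENCODE: 4930520O04Rik for Crtap, AU022252 for P3h1, Snx22 for Ppib, P3h4 and Nt5c3b for Fkbp10, B430319G15Rik for Plod2 and Gm52136 for Bmp1. Whether the counting used strand was not given, so reads from such shared stretches cannot be assigned with certainty. P3h4 is itself a partner of lysyl hydroxylase, and it shares 221 exon bases with Fkbp10. The stretches on the opposite strand run from 153 exon bases (Gm52136 and Bmp1) to 1072 (Snx22 and Ppib). Tmem38b shares 119 exon bases with the ribosomal RNA gene n-R5s185 on the same strand, where counting by strand could not separate them. Crtap also has near-identical stretches in Gm68676 and Gm70043. Neither was found among the genes of the deposited counts, so their levels are not known.

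The 10 genes covered a wide range of levels. Per kilobase of the canonical transcript, and as the mean of the 6 libraries, Serpinh1 stood highest at 375 CPM per kb, and its lowest library lay above the highest library of every other gene in the set. Bmp1 followed at 111 CPM per kb and exceeded the next gene in 6 of 6 libraries. Fkbp10 (73.1), Ppib (72.8) and Plod2 (71.2 CPM per kb) could not be ordered, since Fkbp10 exceeded Ppib in 3 of 6 libraries and Ppib exceeded Plod2 in 4 of 6. Crtap (38.0), P4ha1 (34.2), P3h1 (27.3), Plod1 (14.5) and Tmem38b (6.71 CPM per kb) kept this order in 6 of 6 libraries, although the ranges of neighbours overlapped down to Plod1. With all annotated exons counted in the length, Bmp1 came after Fkbp10 and Plod2. For scale, Col1a1 was at 13107 CPM per kb and Col1a2 at 6346 CPM per kb.

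Promoters of 6 of the 10 genes were found in a RefSeq table of build GRCm38.p6, a build other than the one used for the gene positions given here. P3h1 had 2 start sites there, which makes 7 promoters. The 250 bases before the start are shown for Serpinh1, the most abundant gene of the set, and for Ppib, whose level differed least between the groups among the 8 genes that were lower in mutant femurs. Capitals mark matches, on either strand, to the GC box GGGCGG and to the CCAAT box CCAAT.
Serpinh1, chr7:99353240-99353489, minus strand: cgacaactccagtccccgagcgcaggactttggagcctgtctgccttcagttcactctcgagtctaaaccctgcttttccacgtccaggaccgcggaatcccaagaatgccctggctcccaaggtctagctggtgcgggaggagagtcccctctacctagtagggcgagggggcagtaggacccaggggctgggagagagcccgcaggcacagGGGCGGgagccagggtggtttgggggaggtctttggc
Ppib, chr9:66059919-66060168, plus strand: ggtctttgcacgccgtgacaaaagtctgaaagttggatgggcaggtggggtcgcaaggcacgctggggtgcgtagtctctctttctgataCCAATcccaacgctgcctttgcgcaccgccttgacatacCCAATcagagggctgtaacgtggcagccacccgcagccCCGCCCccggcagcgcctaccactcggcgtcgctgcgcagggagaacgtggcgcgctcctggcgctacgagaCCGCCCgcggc
The Serpinh1 promoter held 1 GC box, 37 bases before the start, and the Ppib promoter held 2 GC boxes and 2 CCAAT boxes. A GC box was found in 5 of the 7 promoters, against 32.7% of 32851 mouse promoters, and a CCAAT box in 3 of 7, against 33.8%. The heat shock unit GAANNTTC, named because the Serpinh1 product is a heat shock protein, was found in 0 of 7 promoters, against 6.69% of all. These matches describe the letters only.

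Crtap, P3h1 and Ppib encode the 3 parts of the complex that 3-hydroxylates certain prolines in collagen chains: Crtap the cartilage-associated protein that holds it together, P3h1 the prolyl 3-hydroxylase, and Ppib cyclophilin B, a proline isomerase. The mean level of each was lower in mutant femurs, none passed the test, and in each the groups overlapped. Crtap (chromosome 9, 114202582 to 114219802 on GRCm39) had 46.1, 57.8 and 73.5 CPM in mutant femurs 1, 2 and 3, against 54.1, 62.5 and 95.9 CPM in control femurs 1, 2 and 3. Its log2 fold change was -0.26 (SE 0.25, adjusted p = 0.787 by the quasi-likelihood test of edgeR, with Benjamini-Hochberg adjustment across the whole table), and only mutant femur 1 lay below all controls. P3h1 (chromosome 4, 119089974 to 119106174) had 54.4, 70.3 and 104 CPM in mutant femurs, against 79.9, 88.9 and 129.9 CPM in control femurs. Mutant femurs 1 and 2 were below every control, while mutant femur 3 was above 2 of them, and the log2 fold change was -0.38 (SE 0.27, adjusted p = 0.705). Ppib (chromosome 9, 65967381 to 65974142) had 76.3, 85.4 and 99.5 CPM in mutant femurs, against 78.5, 90.6 and 121 CPM in control femurs. The difference of -0.15 (SE 0.18, adjusted p = 0.831) was within the spread of either group. It turned to 0.01 when libraries were scaled by their totals alone, where the median over all genes was 0.16.

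**Figure D1:**
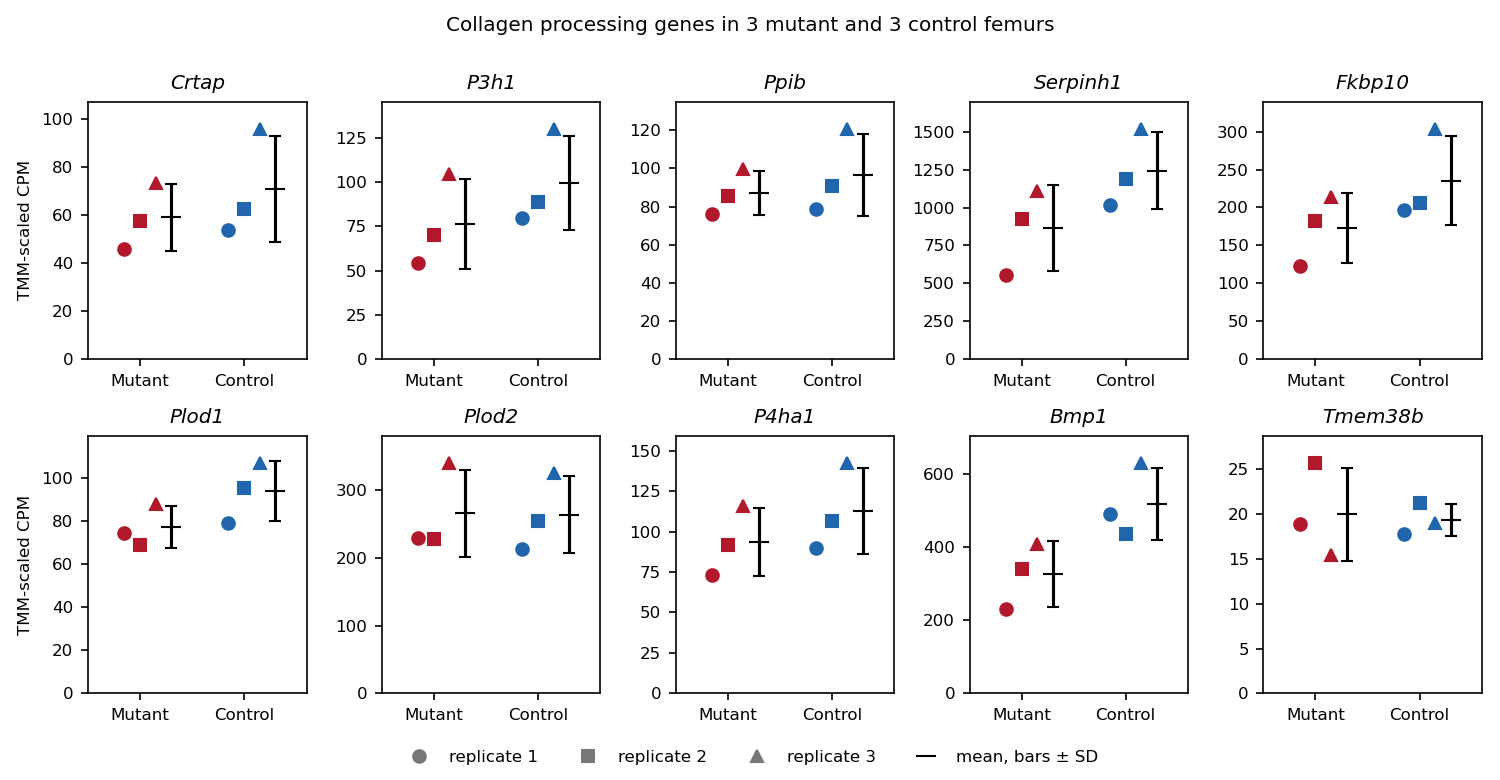
TMM-scaled CPM (vertical axes, linear, from 0) of the 10 genes in 3 mutant femurs (red, left) and 3 control femurs (blue, right). Symbols give the replicate number and black bars the mean ± SD. Bmp1 is the only gene whose 3 mutant femurs, at 229.7 to 407 CPM, all lie below the 3 control femurs, at 436 to 628 CPM.

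Serpinh1 and Fkbp10 encode the collagen chaperones HSP47, which binds the folded triple helix, and FKBP65, a proline isomerase. Their log2 fold changes lay further below 0 than those of the 3-hydroxylation complex, though neither passed the test. Serpinh1 (chromosome 7, 98994220 to 99005076) had 555, 927 and 1109 CPM in mutant femurs, against 1019, 1191 and 1517 CPM in control femurs, or 864 ± 283 CPM against 1242 ± 253 CPM (SD, n = 3 each). Mutant femurs 1 and 2 lay below all controls and mutant femur 3 between control femurs 1 and 2. The log2 fold change was -0.52 (SE 0.27, adjusted p = 0.621), a 0.695-fold level, and it was -0.29 without mutant femur 1. Fkbp10 (chromosome 11, 100305808 to 100315669) had 123, 183 and 214 CPM in mutant femurs, against 197, 207 and 303 CPM in control femurs. As with Serpinh1, a single mutant femur, femur 3, reached the control range, and the log2 fold change was -0.44 (SE 0.24, adjusted p = 0.633), or -0.21 without control femur 3.

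The hydroxylases of lysine and of the 4-position of proline gave mixed values. Plod1, lysyl hydroxylase 1, acts on the helical part of the chain, and Plod2, lysyl hydroxylase 2, on the telopeptides, where its product sets the kind of crosslink. Plod1 (chromosome 4, 147991574 to 148021356) had 74.4, 69.0 and 87.9 CPM in mutant femurs, against 79.1, 95.4 and 107 CPM in control femurs. Here mutant femur 2, and not femur 1, was the lowest library, and the log2 fold change was -0.28 (SE 0.15, adjusted p = 0.633). Plod2 (chromosome 9, 92424119 to 92490494) had 230.4, 228 and 340.0 CPM in mutant femurs, against 213, 254 and 326 CPM in control femurs. The Plod2 groups covered nearly the same range, and the log2 fold change was 0.01 (SE 0.21, 95% interval -0.47 to 0.49, adjusted p = 0.994), with a sign that changed to -0.05 under limma-voom with quality weights. P4ha1 (chromosome 10, 59159092 to 59209126), a catalytic subunit of the prolyl 4-hydroxylase that makes the helix stable at body temperature, had 73.3, 91.8 and 116 CPM in mutant femurs, against 89.6, 106 and 142 CPM in control femurs. Only mutant femur 1 was below all controls, and the log2 fold change was -0.27 (SE 0.21, adjusted p = 0.742).

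Bmp1 encodes the procollagen C-proteinase, which cuts the carboxyl propeptide from procollagen outside the cell. It had the largest difference of the 10 genes and was the only one whose groups did not overlap, as 6.67% of all genes tested had all 3 mutant femurs below all 3 controls. Bmp1 (chromosome 14, 70711689 to 70758178) had 229.7, 339 and 407 CPM in mutant femurs, against 489, 436 and 628 CPM in control femurs, or 325 ± 89.6 CPM against 518 ± 99.2 CPM (SD, n = 3 each). The log2 fold change was -0.67 (SE 0.23, 95% interval -1.19 to -0.15), a 0.628-fold level, and the adjusted p of 0.563 did not pass the threshold of 0.05. Tmem38b encodes TRIC-B, a potassium channel of the endoplasmic reticulum that balances the release of calcium, and it was the least abundant gene of the set. Tmem38b (chromosome 4, 53825984 to 53862026) had 18.8, 25.6 and 15.4 CPM in mutant femurs, against 17.7, 21.2 and 19.0 CPM in control femurs. Mutant femurs held both its highest and its lowest library, and the log2 fold change was 0.05 (SE 0.21, 95% interval -0.42 to 0.52, adjusted p = 0.961).

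As a set, 8 of the 10 genes had a log2 fold change below 0, as did 49.7% of all genes tested, and their median was -0.28, against 0.00 over all genes. None passed the test: 0 of 10 were called by edgeR, where 0% of all genes were called, 0 of 10 by DESeq2, where 0.651% were, and 0 of 10 by limma-voom, where 0% were. At an unadjusted p under 0.05, 1 of the 10 passed in edgeR, against 8.56% of all genes. This was Bmp1. The levels also varied between libraries of 1 group. Mutant femur 1 was the lowest library for 7 of the 10 genes and control femur 3 the highest for 8 of 10. In mutant femur 1, 8 of the 10 genes were below the control range, in mutant femur 2, 5 were, and in mutant femur 3, 2 were. Accordingly the median of the set was -0.16 without mutant femur 1, -0.45 without mutant femur 3, -0.43 without control femur 1 and -0.10 without control femur 3, and 6 of 10 (without control femur 3) to 10 of 10 (without control femur 1) were below 0. With libraries scaled by their totals alone, the median over all genes shifted by 0.16 and that of the set was -0.11, with 7 of 10 below 0.

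Replicate numbers are shared between the groups, but no source ties them to litters, and the pairs were taken from these same data. Deviations of same-numbered libraries from their group means correlated at 0.154, 0.212 and 0.465 for numbers 1, 2 and 3. Mutant femur 1 correlated more with control femur 2 (0.202), so numbers 1 and 2 are hardly told apart as pairs. The column headers of the deposited counts are consecutive numbers for pairs 2 and 3 but not for pair 1, and their meaning is not given. Because the pairs were adopted from these correlations, p-values with the replicate block can be too small. Compared within these pairs, the same 8 genes were lower in the mutant femur in 3 of 3 pairs, where 19.1% of all genes were. The difference in log2 CPM was -1.09, -0.36 and -0.63 for Bmp1 in pairs 1, 2 and 3. For Serpinh1 it was -0.88, -0.36 and -0.45. For both, as for Fkbp10 and P3h1, pair 1 had the widest gap, whereas the gap of Crtap and Ppib was widest in pair 3 and that of Plod1 in pair 2. P4ha1 had much the same gap in each (-0.29, -0.21 and -0.30). Plod2 (0.11, -0.16 and 0.06) and Tmem38b (0.09, 0.27 and -0.30) changed sign between pairs. With the replicate number as a block in edgeR, 2 of the 10 genes were called lower in mutant femurs, where 0.623% of all genes were called lower and 3.32% in all. These were Bmp1 (log2 fold change -0.69, SE 0.14, adjusted p = 0.0249 with the block) and Serpinh1 (-0.56, SE 0.13, adjusted p = 0.0454 with the block). Limma-voom with the block called the same 2 genes, where 0.485% of all genes were called lower, and DESeq2 with the block called Fkbp10 as well (adjusted p = 0.0490), where 0.954% were. The calls depended on which pairs entered: Bmp1 alone was called without pair 1 (adjusted p = 0.0470) or without pair 2 (adjusted p = 0.00866), and 0 of 10 without pair 3. In these fits 1.61%, 3.81% and 0.865% of all genes were called.

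**Figure D2:**
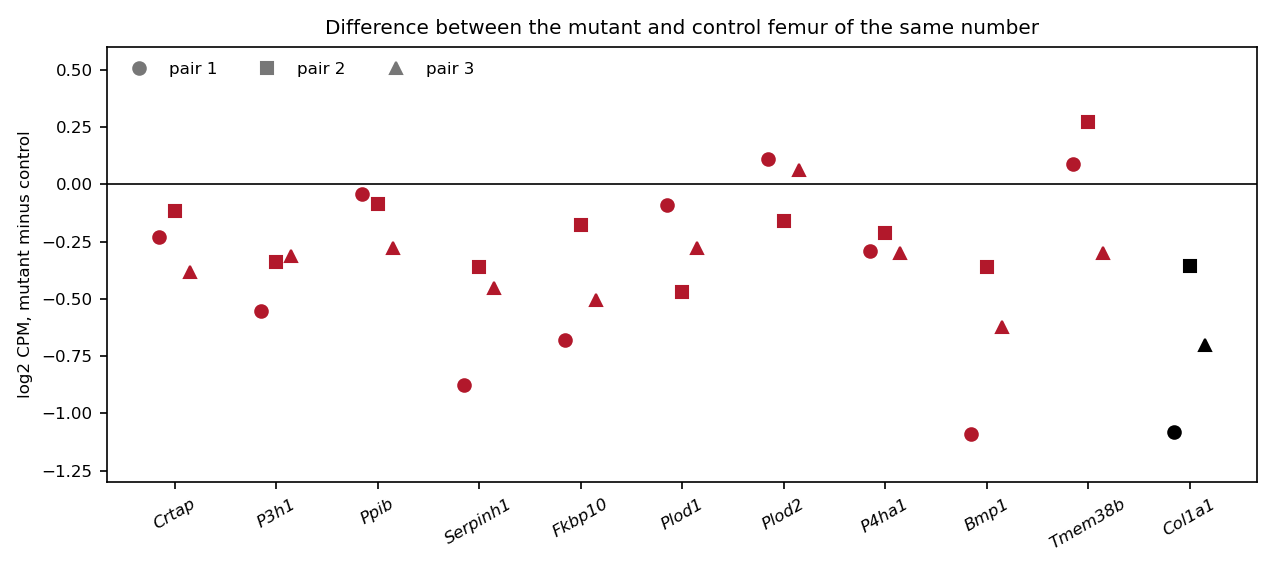
Difference in log2 CPM (vertical axis) between the mutant and the control femur with the same replicate number, for the 10 genes (red) and Col1a1 (black). Symbols give the pair, and the line marks 0. Bmp1 (-1.09, -0.36 and -0.63) lies close to Col1a1 (-1.08, -0.36 and -0.70) in each pair, while Plod2 and Tmem38b fall on both sides of 0.

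Osteoblast and osteocyte markers varied between the libraries in a similar way to the set. Their summed level was 3060, 3917 and 5268 CPM in mutant femurs 1, 2 and 3, against 4511, 4570 and 6683 CPM in control femurs 1, 2 and 3, and 11 of 12 had a log2 fold change below 0, with a median of -0.40 (-0.61 without mutant femur 3 and -0.18 without control femur 3). Mutant femur 1 was thus the lowest library and control femur 3 the highest for these markers as well. Erythroid markers ran the other way, at 10767, 3504 and 1664 CPM in mutant femurs, against 1843, 1197 and 636 CPM in control femurs, with 9 of 9 measured markers above 0. All 8 neutrophil markers (962 to 1677 CPM in mutant femurs, against 265 to 544 CPM in control femurs) and all 10 chondrocyte markers (1956 to 5943 CPM in mutant femurs, against 1366 to 1767 CPM in control femurs) were also higher in mutant femurs. Among osteoclast markers, 7 of 8 were below 0, with sums of 2610 to 4517 CPM in mutant femurs and 3385 to 6723 CPM in control femurs. Of the tendon and fibroblast markers, 4 of 8 were above 0, with a median of 0.12 (-0.16 without control femur 1). The deposited counts hold no gene below 10 counts in total, so a marker at 0 in every library could not appear. Ahsp, of the erythroid list, was not found in them. The part of these differences in tissue makeup in the levels of the 10 genes was not tested.

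To set the processing genes against their substrate, each was also taken as a ratio to Col1a1. Col1a1 itself had 40591, 64418 and 73351 CPM in mutant femurs 1, 2 and 3, against 86037, 82606 and 119340 CPM in control femurs 1, 2 and 3. Its groups did not overlap, with mutant below control as for 6.67% of all genes tested. Its log2 fold change was -0.69 (SE 0.34, adjusted p = 0.614, and 0.0877 with the block). With the block, DESeq2 (adjusted p = 0.000297) and limma-voom (adjusted p = 0.0380) called it lower, where 0.954% and 0.485% of all genes were. With this denominator, 96.1% of all genes had a ratio with a log2 fold change above 0, and the median over all genes was 0.74. All 10 processing genes were on the same side, from 0.02 to 0.78 with a median of 0.46, and Tmem38b was above the median of all genes, Plod2 level with it and the other 8 below it. Without mutant femur 1, where the median over all genes was 0.44, Plod2 (0.57) and Tmem38b (0.55) were above it. The log2 fold changes of the level were thus all closer to 0 than that of Col1a1, with Bmp1 the nearest to it.

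**Figure D3:**
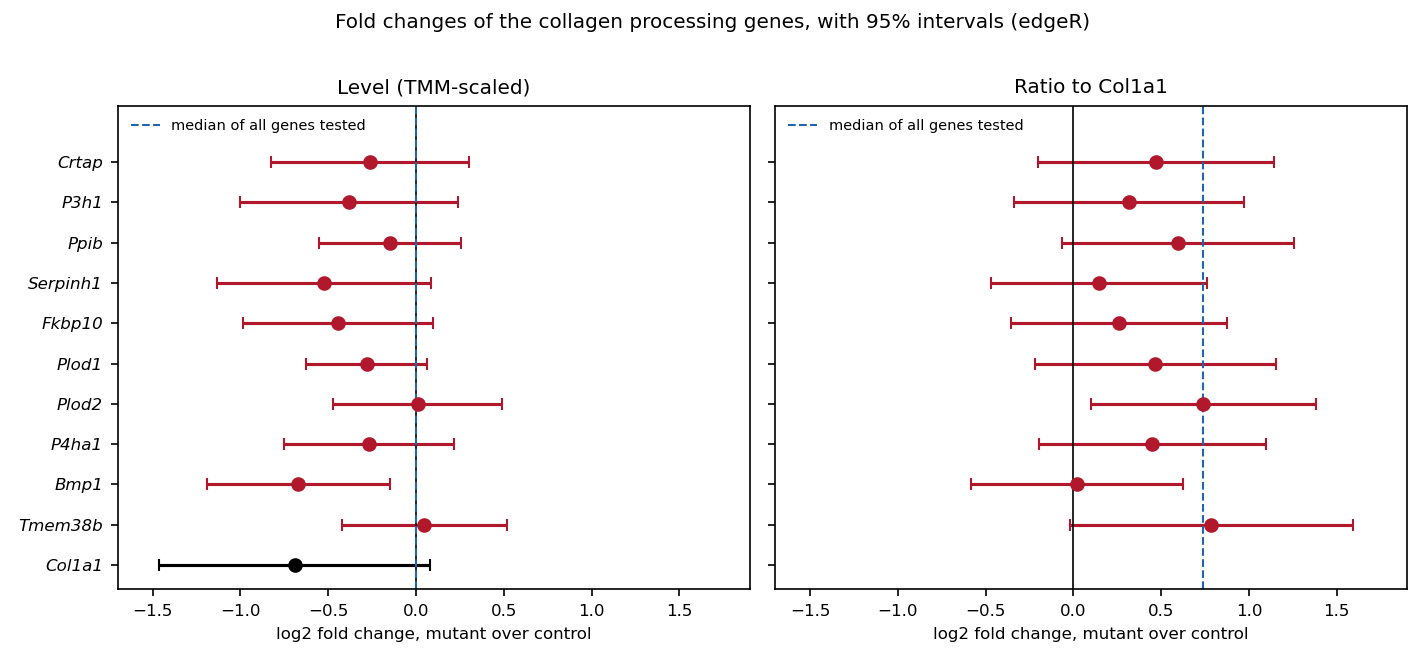
Log2 fold change, mutant over control (horizontal axes), of the TMM-scaled level (left) and of the ratio to Col1a1 (right), with 95% intervals from edgeR without a block. The dashed line is the median of all genes tested, 0.00 for the level and 0.74 for the ratio. Bmp1 at -0.67 sits beside Col1a1 at -0.69 in level and at 0.02 in ratio, while Plod2 and Tmem38b sit near 0 in level and at 0.74 and 0.78 in ratio.

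Bmp1 kept an almost constant ratio to Col1a1. It had 5.66, 5.27 and 5.55 counts per 1000 Col1a1 counts in mutant femurs 1, 2 and 3, against 5.69, 5.28 and 5.26 in control femurs 1, 2 and 3. Its highest library was 1.08 times its lowest, although its CPM varied 2.74-fold, and this was the narrowest spread of 17997 genes with a count in every library, ahead of Col1a2 at 1.09-fold. The median spread of the ratio over all those genes was 3.26-fold. Next in the set were the chaperones. Serpinh1 had 13.7, 14.4 and 15.1 counts per 1000 Col1a1 counts in mutant femurs, against 11.8, 14.4 and 12.7 in control femurs, a spread of 1.28-fold that ranked 52 of 17997. Fkbp10 had 3.03, 2.84 and 2.91 in mutant femurs, against 2.29, 2.50 and 2.54 in control femurs, with a spread of 1.32-fold that ranked 83. Unlike those of Serpinh1 and Bmp1, the 2 groups of Fkbp10 ratios did not overlap, with mutant above control as for 42% of all genes. These ranks were looked up after the values had been seen and describe the 6 libraries only.

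The remaining genes departed further from Col1a1. Plod2 had 5.67, 3.54 and 4.64 counts per 1000 Col1a1 counts in mutant femurs, against 2.48, 3.08 and 2.73 in control femurs. Tmem38b had 0.464, 0.398 and 0.211 in mutant femurs, against 0.206, 0.257 and 0.159 in control femurs. All mutant ratios of Plod2 were above all control ratios, while Tmem38b in mutant femur 3 was within the control range. The ratio was above every control in all 3 mutant femurs for 6 of the 10 genes (Crtap, P3h1, Ppib, Fkbp10, Plod2 and P4ha1), as it was for 42% of all genes. Crtap had 0.897 to 1.14 counts per 1000 Col1a1 counts in mutant femurs and 0.628 to 0.804 in control femurs, and Ppib had 1.33 to 1.88 in mutant femurs and 0.913 to 1.10 in control femurs. The ratios of P3h1 were 1.09 to 1.42 in mutant femurs and 0.928 to 1.09 in control femurs, and its groups nearly touched. The ratios of P4ha1 were 1.42 to 1.81 in mutant femurs and 1.04 to 1.29 in control femurs. Those of Plod1 overlapped, at 1.07 to 1.83 in mutant femurs and 0.894 to 1.16 in control femurs.

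**Figure D4:**
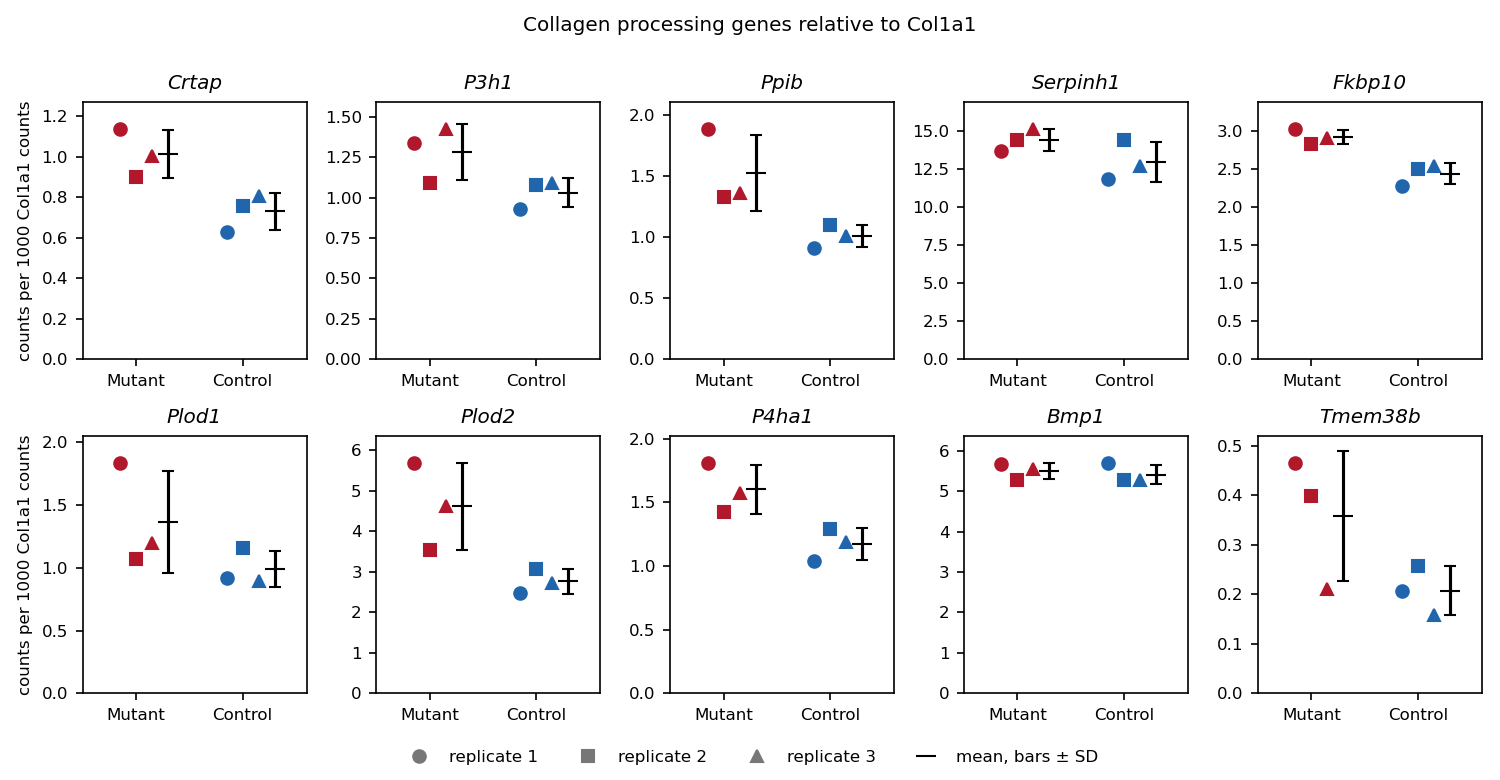
Counts of each gene per 1000 Col1a1 counts (vertical axes, linear, from 0) in 3 mutant femurs (red, left) and 3 control femurs (blue, right), with symbols for the replicate number and black bars for the mean ± SD. The ratio of Bmp1 stays between 5.26 and 5.69 in all 6 femurs, while that of Plod2 is 3.54 to 5.67 in mutant femurs and 2.48 to 3.08 in control femurs.

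In the test of the ratio, which used the Col1a1 count of each library in place of its size, 0 of the 10 genes were called by edgeR, where 0.0607% of all genes were. At an unadjusted p under 0.05, 1 of the 10 passed, Plod2, against 32.6% of all genes. The log2 fold change of the ratio was 0.74 for Plod2 (SE 0.31, 95% interval 0.10 to 1.38, adjusted p = 0.138) and 0.78 for Tmem38b (SE 0.39, 95% interval -0.02 to 1.59, adjusted p = 0.157). For Bmp1 it was 0.02 (SE 0.29), with a 95% interval of -0.58 to 0.63 that does not show an equal ratio in the 2 groups. That interval does not measure the spread of the Bmp1 ratios alone, since edgeR draws the spread of each gene towards that of all genes. The Bmp1 ratios were 5.49 ± 0.202 in mutant and 5.41 ± 0.238 in control femurs (SD, n = 3 each). With the replicate block, Plod2 (0.72, adjusted p = 0.0347) and Tmem38b (0.73, adjusted p = 0.0358) rose relative to Col1a1, but so did 43.3% of all genes. Both calls were lost without pair 1 or without pair 3, where 21.1% and 1.18% of all genes were called. Without pair 2 Ppib was called as well (0.73, adjusted p = 0.0486), as were 57.2% of all genes. Without mutant femur 3 and with no block, Tmem38b was called (1.06, adjusted p = 0.0481), as were 28.1% of all genes. Every ratio shares the error of 1 denominator, so these results are not independent of each other. Relative to the summed osteoblast and osteocyte markers in place of Col1a1, a denominator chosen after seeing the data, the median of the set was 0.11, against 0.39 over all genes, with 4 of 10 below 0. In that fit 0 of 10 were called, where 0% of all genes were.

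Other genes of collagen biosynthesis, from fixed lists, were compared in the same way. Without a block 0 genes of any of these lists passed in edgeR. Of the other prolyl hydroxylase genes, 2 of 4 were above 0 (median 0.04, or -0.12 without control femur 1). P3h2, a second prolyl 3-hydroxylase, had 25.6, 15.4 and 25.0 CPM in mutant femurs, against 9.90, 12.1 and 16.2 CPM in control femurs (log2 fold change 0.78, adjusted p = 0.545), and P4ha3 had a log2 fold change of 0.24 (adjusted p = 0.807). Of the lysyl hydroxylation and glycosylation genes, 4 of 5 were below 0 (median -0.16). P3h3, which acts with lysyl hydroxylase 1, had 26.8, 32.7 and 39.9 CPM in mutant femurs, against 40.2, 41.0 and 51.5 CPM in control femurs, with no overlap (log2 fold change -0.42, adjusted p = 0.578). Every mutant femur was likewise below every control for 6.67% of all genes tested. Colgalt2, a collagen galactosyltransferase, had 23.8, 7.73 and 31.8 CPM in mutant femurs, against 10.8, 7.42 and 7.77 CPM in control femurs (1.29, adjusted p = 0.563). It was high in mutant femurs 1 and 3, the libraries in which chondrocyte markers summed to 4254 and 5943 CPM, against 1956 CPM in mutant femur 2, and the part of cartilage in this value was not tested.

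Of the folding and export genes, 10 of 13 were below 0 (median -0.34). Creb3l1, the transcription factor OASIS, which drives secretory genes in osteoblasts, had 113, 168 and 182 CPM in mutant femurs, against 191, 206 and 301 CPM in control femurs. Its groups did not overlap, and the log2 fold change was -0.59 (SE 0.23, adjusted p = 0.563, and 0.0232 with the block, where 0.623% of all genes were called lower). Mia3, the export receptor TANGO1, had a log2 fold change of -0.28 (adjusted p = 0.621), and its groups nearly touched without overlap. Among all genes tested, 6.67% had every mutant femur below every control. Of the propeptide cleavage genes tested, 4 of 6 were below 0 (median -0.34). Adamts14, a procollagen N-proteinase, had 15.9, 25.7 and 29.2 CPM in mutant femurs, against 47.7, 39.9 and 50.8 CPM in control femurs, and a log2 fold change of -0.96 (SE 0.22, adjusted p = 0.490). Its groups did not overlap, and it was called lower by DESeq2 (adjusted p = 0.0340), where 0.0607% of all genes were, and by edgeR with the block (adjusted p = 0.0153), where 0.623% were. It was the only gene of this list called in either fit. Adamts2, the main N-proteinase, had overlapping groups and a log2 fold change of -0.38 (adjusted p = 0.628). Tll2 had at most 21 counts in a library and was not tested, and Mep1a and Mep1b were not found among the genes of the deposited counts.

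Of the crosslinking genes, 3 of 5 were below 0 (median -0.24). Lox, lysyl oxidase, had 660 to 1510 CPM in mutant femurs and 1129 to 2085 CPM in control femurs (log2 fold change -0.50, adjusted p = 0.691), and the related Loxl4 had a log2 fold change of -0.56 (adjusted p = 0.658). Of the other genes of brittle bone disease, 7 of 9 tested were below 0 (median -0.27), and Wnt1, with at most 9 counts in a library, was not tested. Sp7, the osteoblast transcription factor osterix, which is also in the osteoblast marker list, had 137, 166 and 220 CPM in mutant femurs, against 231, 213 and 291 CPM in control femurs (-0.49, adjusted p = 0.570, and 0.0384 with the block). Tent5a, which lengthens the poly(A) tails of collagen transcripts, had 253, 295 and 377 CPM in mutant femurs, against 385, 373 and 581 CPM in control femurs (-0.53, adjusted p = 0.570, and 0.0307 with the block). For each of them mutant femur 3 alone reached the control range. With the block, 0.623% of all genes were called lower. Of the fibrillar collagens, 7 of 10 were below 0 (median -0.35), among them Col24a1 (-0.66, adjusted p = 0.563), a minor collagen of bone, while Col2a1 (1.16, adjusted p = 0.545), the collagen of cartilage, was above 0.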

How the data were processed

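Total RNA from pulverized femurs was sequenced after depletion of ribosomal RNA, and by the methods STAR was used for alignment. Partek and build mm39 are named in the submitters' processing notes. Versions, annotation, counting settings and use of strand: not given in the sources used here. Estimated counts per gene, not scaled to depth, were deposited by the authors, with 70.7% of values exactly whole and no gene below 10 counts in total. The counts were rounded, filtered (edgeR filterByExpr, minimum 10 counts and 15 in total) and scaled by TMM. Precision was judged from the spread between 3 mice per group, which edgeR draws for each gene towards that of all genes tested. An exact permutation test cannot go below p = 0.1 here.

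Mutant and control were compared by the quasi-likelihood test of edgeR 4.0.16 (R 4.3.3, robust estimation) with Benjamini-Hochberg adjustment over all genes tested, at an adjusted p under 0.05. Log2 fold changes are mutant over control. The ratio to Col1a1 was tested in the same way with the Col1a1 count as library size. DESeq2 1.42.0, limma 3.58.1 voom, other scalings and filters, a replicate block and leaving out each library were alternatives. Replicate numbers were taken as pairs because deviations of same-numbered libraries from their group means correlated at 0.154, 0.212 and 0.465, each over the limit of 0.1, although mutant femur 1 correlated at 0.202 with control femur 2. No source ties the numbers to litters.

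Symbols and GRCm39 positions came from GENCODE vM39 by identifier (23572 of 23733 genes matched). All 10 members are named, with the genes called in each pathway list or else the 2 with the smallest p. The members and lists were chosen with earlier results of these data known. The fits were run on simulated counts with known fold changes, drawn with the spread estimated under the replicate block. Such runs cannot give the rate of false calls at the spread without a block, nor that of the ratio to Col1a1. No conclusion is drawn from them. No libraries agreed within sampling noise (chi-square per gene at least 16.8). Figures were drawn with matplotlib 3.10.9, and copies were searched with BLAST 2.17.0.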

Additional observations from a re-analysis of the deposited data

How the results depend on the processing

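With the replicate block, which called 3.32% of all genes (4.05% with DESeq2, 2.74% with limma-voom), 2 of the 10 genes were called in place of 0 (3 with DESeq2, 2 with limma-voom). Relative to Col1a1, 2 were called with the block, where 43.4% of all genes were. With a pair or a library left out, 0 to 1 were called, where 0% to 3.81% of all genes were. Relative to Col1a1 it was 0 to 3, where 0% to 57.2% of all genes were called. In the pathway lists, where 0 genes were called in edgeR without the block, the block gave 2 of 13 for folding and export, 1 of 6 for propeptide cleavage and 2 of 9 for other brittle bone disease genes, in either direction. DESeq2 without the block, which called 0.651% of all genes, gave 1 of 6 for propeptide cleavage. DESeq2 with the block gave 1 of 4 for prolyl hydroxylation, 1 of 5 for lysyl hydroxylation, 1 of 6 for propeptide cleavage, 3 of 13 for folding and export, 2 of 5 for crosslinking, 4 of 9 for other brittle bone disease genes and 3 of 10 for fibrillar collagens. Limma-voom with the block gave 1 each for lysyl hydroxylation and propeptide cleavage, 2 for folding and export, 3 for other brittle bone disease genes and 2 for fibrillar collagens. Left-out pairs gave 0 to 3 for folding and export, 0 to 2 for propeptide cleavage and fibrillar collagens, and 0 to 1 for prolyl hydroxylation, lysyl hydroxylation and crosslinking. Those fits called 0.865% to 3.81% of all genes. The block changed no other call of a member.

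Of the members, Plod2, Tmem38b, Crtap and Ppib turned sign. Leaving out a library gave -0.21 to 0.19 for Plod2, -0.18 to 0.20 for Tmem38b, -0.45 to 0.025 for Crtap and -0.29 to 0.047 for Ppib. P3h1 (-0.68 to -0.14), P4ha1 (-0.45 to -0.063), Serpinh1 (-0.75 to -0.29), Fkbp10 (-0.63 to -0.21), Plod1 (-0.41 to -0.18) and Bmp1 (-0.87 to -0.47) kept theirs. For the genes that kept their sign, the low ends came without mutant femur 3 (Plod1 without control femur 1). Their values nearest 0 came without control femur 3 (Serpinh1 and Bmp1 without mutant femur 1). The medians of the muscle, tendon and prolyl hydroxylation lists turned as well. With the block and a pair left out, Plod2 was -0.053 (without pair 1) and -0.025 (without pair 3), and Tmem38b -0.016 (without pair 1) and -0.11 (without pair 2). Plod2 was -0.055 under limma-voom with quality weights, and Ppib 0.011 with library totals alone, where the median over all genes was 0.16. Relative to Col1a1, Bmp1 was -0.0052 with the block and without pair 3, and -0.042 relative to Col1a2. Relative to the osteoblast markers, P3h1 was -0.027, Serpinh1 -0.18, Fkbp10 -0.075 and Bmp1 -0.32. The cause of these changes was not tested. The fits of a block with another tool or with a pair left out, and the osteoblast denominator, were chosen after seeing the data. The lowest member, Tmem38b, had 213 to 361 counts per library.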

Other observations

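Tmem38a, which encodes TRIC-A, the channel related to TRIC-B that is known mainly from muscle, ran apart from Tmem38b. It was chosen after its values were seen. Tmem38a had 139, 167 and 32.8 CPM in mutant femurs 1, 2 and 3, against 71.5, 123 and 16.6 CPM in control femurs 1, 2 and 3. It was higher in the mutant femur of each pair, with a log2 fold change of 0.69 (adjusted p = 0.851 by edgeR), or 0.79 with the block (adjusted p = 0.00833, where 2.7% of all genes were called higher). Skeletal muscle markers summed to 6586, 12440 and 1964 CPM in mutant femurs, against 4535, 8940 and 1085 CPM in control femurs, so that the highest and the lowest library were the same as for Tmem38a. All 8 of these markers were above 0, with a median of 0.60 (-0.04 without mutant femur 2 and 1.40 without control femur 2). The part of muscle in the Tmem38a value was not tested.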
